A study of Mus musculus with 12 samples.

Results

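Nonsense-mediated decay (NMD) removes mRNAs in which translation ends too early, and it also tunes the level of many normal transcripts. UPF1 is an RNA helicase at its centre. UPF2 bridges UPF1 to UPF3A or UPF3B, which can contact the exon junction complex that splicing leaves on the mRNA. SMG1 is the kinase that phosphorylates UPF1, SMG5 is an adaptor that binds phosphorylated UPF1, and SMG6 is the endonuclease that cuts the target. The mRNAs of these 7 genes (Upf1, Upf2, Upf3a, Upf3b, Smg1, Smg5 and Smg6) were described here, chosen by gene name. No rule on measured values was used, but earlier results of these data were known. They are 7 of 34079 annotated genes with values, and they contributed 32 of 213131 rows of exonic or intronic abundance.

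The cells were mouse embryonic stem cells (mESCs, DTCM23/49 XY line), grown with LIF on gelatin. All of them received 200 µM 4-thiouridine (4sU), a uridine analog that enters RNA as it is made, for 15, 30 or 60 min. Labeled RNA, recovered through biotin on the 4sU, was compared with total RNA of the same labeling time, with 2 biological replicates of each, giving 6 labeled and 6 total libraries. Both replicates were 1 culture divided and passaged apart. The 6 libraries of a fraction come from these 2 replicates at different labeling times and are not 6 independent cultures. The main fits hold no term for the replicate, so p-values measure only the spread among these libraries. No library came from cells without 4sU.

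Abundances are the authors' length-normalized values, scaled to the same total in every library over exons and introns together. A level is thus a share of its own library, and labeled and total RNA can be compared only relative to the other features. The authors give only an average sequencing depth, so that of each library is unknown. Introns held 6.52 to 7.40% of the summed abundance in total RNA. In labeled RNA they held 14.8 and 13.9% in replicate 1 at 15 and 60 min, but 7.23 and 6.98% in replicate 2 at the same times, and 9.33 and 10.7% at 30 min, so 2 labeled libraries were as poor in introns as total RNA. All 8 pluripotency markers tested had a mean abundance of at least 20, and their sum ranged from 19347 to 31969 in labeled and from 20570 to 29011 in total RNA. The sum of 6 fibroblast markers was 23.9 to 55.8, with Col3a1, Dcn and Postn at 0. Thy1, at a mean of 33.7, supplied most of it and was the 1 fibroblast marker that reached 20. The sum of 5 endoderm markers was 2.55 to 23.1, with Afp at 0. The 3 neuroectoderm markers found all reached a mean of 20, with a sum of 69.0 to 249.

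In GENCODE M1 (mm9 build), the helicase gene Upf1 occupied chr8:72855421-72877172 (minus strand), with 1 transcript of 24 exons. Upf2 occupied chr2:5872515-5977749 (plus), Upf3a chr8:13785615-13798538 (plus) and Upf3b chrX:34631673-34650335 (minus). The kinase gene Smg1 occupied chr7:125274832-125387151 (minus) and its transcript had the most exons, 63. Smg5 occupied chr3:88140182-88166259 (plus) and Smg6 chr11:74739325-74977950 (plus). Gene spans ran from 12924 bases for Upf3a to 238626 bases for Smg6. Values were available for 16 of the 17 transcripts annotated to these genes, 3 of Upf2, 3 of 4 of Upf3b, 6 of Smg6 and 1 of each other gene. Upf1 shared 66 bases of exon, and no intron, with Lass1 and Gdf1 on the opposite strand, and Smg6 shared 126 exonic bases, and no intron, with Srr. Smg6 also overlapped 4 genes that do not code for protein (U6, Gm12333, Gm12334 and Gm12335) and Smg1 overlapped SNORA71, all on the opposite strand, and their part in the values was not tested. Whether reads were counted by strand is not given in the sources used here, so reads over these bases cannot be told apart.

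The start regions of Upf1 and Upf3b are shown because these genes had the lowest and the highest summed exonic level in total RNA of the 7. Each sequence (RefSeq, GRCm38.p6) runs from 250 bases before to 50 bases after the start. Capitals mark each match on either strand to 1 of 3 motifs. The GC box was searched as GGGCGG. The CCAAT box was searched by the letters of its name. The letters TATAAA stood for the TATA box. No match overlapped another in these sequences.
Upf1, minus strand of chr8:70353230-70353529: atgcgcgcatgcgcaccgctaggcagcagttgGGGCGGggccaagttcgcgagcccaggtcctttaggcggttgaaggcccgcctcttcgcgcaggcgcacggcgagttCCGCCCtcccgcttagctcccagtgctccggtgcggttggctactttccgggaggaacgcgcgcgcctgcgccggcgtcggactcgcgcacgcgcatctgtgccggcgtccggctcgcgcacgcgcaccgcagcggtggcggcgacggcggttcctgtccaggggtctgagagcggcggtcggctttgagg
Upf3b, minus strand of chrX:37110273-37110572: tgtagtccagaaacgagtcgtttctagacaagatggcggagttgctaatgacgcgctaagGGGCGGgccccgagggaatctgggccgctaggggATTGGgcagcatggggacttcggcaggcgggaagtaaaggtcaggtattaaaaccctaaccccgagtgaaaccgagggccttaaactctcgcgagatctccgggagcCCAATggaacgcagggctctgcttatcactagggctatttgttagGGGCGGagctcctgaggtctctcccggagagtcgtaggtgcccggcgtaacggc
The Upf1 region held 47 CpG dinucleotides, more than 98.6% of the 32851 mouse start regions of this length, and 2 GC boxes. The Upf3b region held 22 CpG dinucleotides, more than 76.9% of regions, with 2 GC boxes and 2 CCAAT boxes. Over the 7 genes, 6 start regions held a GC box, against 35.7% of all regions, 3 held a CCAAT box, against 37.4%, and 0 held this TATA box, against 13.6%. These matches describe letters in the window and were not tested as binding sites.

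In total RNA the 7 mRNAs differed widely in level. Upf3b had the highest exonic abundance, 321 ± 30.3 (SD, n = 6), followed by Upf2 at 282 ± 78.0, Smg6 at 244 ± 30.4 and Smg1 at 220 ± 32.6. Upf3a at 82.9 ± 19.9, Smg5 at 53.9 ± 8.56 and Upf1 at 33.3 ± 2.86 were lower. The ranges of neighbors in this order overlapped, from Upf3b down to Smg1 and between Upf3a and Smg5, whereas the lowest Smg1 library (170) lay above the highest Upf3a library (111), and the lowest Smg5 library (42.9) above the highest Upf1 library (37.9). Among 10637 protein-coding genes with a mean of at least 20, Upf1 exceeded only 11.5%, Smg5 21.8% and Upf3a 32.4%, while Smg1, Smg6, Upf2 and Upf3b exceeded 56.5 to 64.9%. By its 1 transcript in GENCODE M1, the gene for the central helicase was thus the least abundant of the 7. Transcripts added after M1 were not assigned to genes, so later forms of these genes are not counted in the levels. The levels of Upf2, Upf3b and Smg6 are sums over several transcripts, which may count shared sequence more than once. Their highest transcripts alone reached 122 ± 33.8, 152 ± 41.1 and 82.5 ± 11.6, and by that measure Smg1 (220) stood highest, while Upf1 stayed lowest.

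The comparison of labeled with total RNA asks whether an mRNA held a larger or smaller share of labeled than of total RNA. Since all libraries have the same total, it does not give the amount made during the labeling time. In the exons of Upf1, labeled RNA had a lowest, median and highest abundance of 19.2, 23.4 and 27.4, and total RNA of 29.3, 33.0 and 37.9. Every labeled library thus lay below every total library. How many of all features lacked overlap was not counted, for exons, introns or intronic share, so the ranges here only describe each gene. The log2 difference, computed as log2(value + 1) and labeled minus total throughout, was -0.51 ± 0.18 (SE), with a limma adjusted p of 0.0702 over 25276 genes and unassigned transcripts. Smg1 had 143, 159 and 193 in labeled and 170, 226 and 261 in total RNA, ranges that overlap. Its log2 difference was -0.41 ± 0.14 (SE, limma adjusted p = 0.0662). Upf3b differed the other way, with 307, 403 and 577 in labeled and 294, 311 and 364 in total RNA. Its highest labeled library was replicate 2 at 60 min, the ranges overlapped, and the log2 difference was 0.35 ± 0.13 (SE, limma adjusted p = 0.0921).

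The other exonic differences were small beside their spread. Smg6 gave -0.26 ± 0.17, Upf3a -0.21 ± 0.19, Upf2 -0.13 ± 0.26 and Smg5 0.15 ± 0.20 (log2, SE), with limma adjusted p of 0.311 to 0.769 and overlapping ranges. In all, 0 of 7 genes passed an adjusted p of 0.05 in either direction. Unadjusted, 3 of 7 had a limma p under 0.05, beside 8078 of all 25276 features. Over all features tested, 6.33% were called higher and 9.50% lower in labeled RNA. Upf1 and Smg1 passed the threshold, both lower, when library medians were set equal or quantiles were normalized, and when labeled replicate 2 at 15 min or labeled replicate 1 at 60 min was left out. In these settings, in this order, 3681, 3013, 3274 and 3134 of 25276 features were called lower. Upf1 did so without the mean-variance trend too, Smg1 without total replicate 1 at 60 min and Upf3b passed, higher, without labeled replicate 2 at 15 min.

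**Figure D1:**
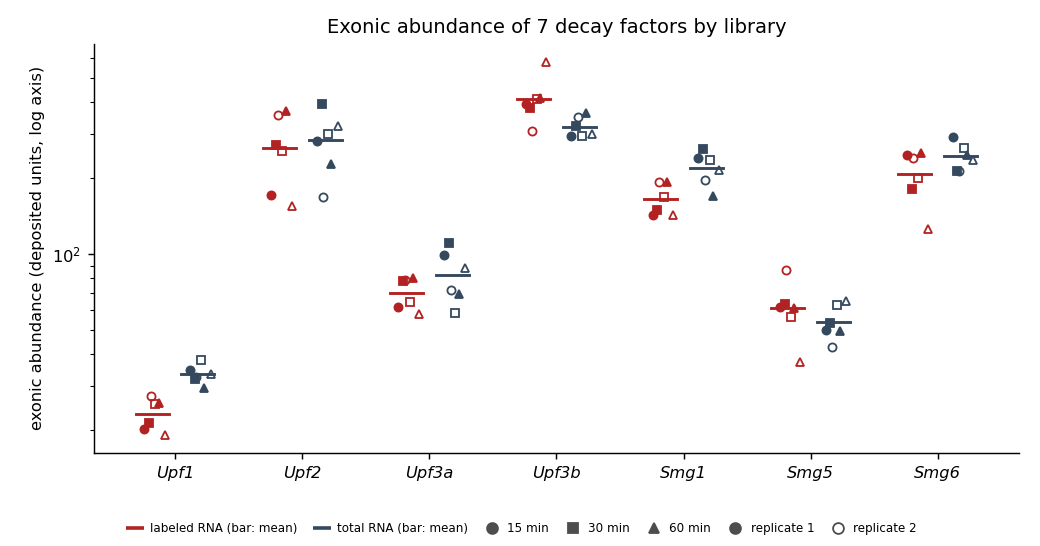
Exonic abundance in deposited units (log axis) of each gene in each of 12 libraries, labeled RNA in red and total RNA in dark blue, with the mean of 6 as a bar, symbols for labeling time and open symbols for replicate 2. For Upf1 the labeled libraries (19.2 to 27.4) all lie below the total libraries (29.3 to 37.9).

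Single transcripts were tested as well, and 13 of the 16 reached the mean of 20 needed. The single transcript of Upf1, ENSMUST00000075666, was called lower in labeled RNA in this fit (-0.51 ± 0.16 on the log2 scale, SE, limma adjusted p = 0.0432 over 45495 transcripts), where 12.1% of transcripts were called lower and 5.24% higher. With the replicate as a block its limma adjusted p was 0.0981, and it lost the call in 17 of 25 alternatives. Of the 6 Smg6 transcripts, the coding form with the most exons (Smg6-001) had 78.0 ± 14.1 in labeled and 82.5 ± 11.6 in total RNA (SD, n = 6). A form annotated as a target of NMD itself (Smg6-003) reached 53.2 ± 13.2 and 64.8 ± 8.34. Its log2 difference was -0.31 ± 0.18 (SE, limma adjusted p = 0.256), against -0.09 ± 0.15 (limma adjusted p = 0.715) for Smg6-001. Upf2-002, a shorter coding form, had the highest total level of the Upf2 transcripts, 122 ± 33.8, against 114 ± 22.7 for Upf2-001. For Upf3b it was Upf3b-003, with 152 ± 41.1 in total and 215 ± 91.2 in labeled RNA (SD, n = 6), and the difference of 0.44 ± 0.25 (log2, SE) had a limma adjusted p of 0.249. Transcripts of a gene share much of their sequence, so how the abundance was divided among them is uncertain.

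In introns, which mark RNA not yet spliced, Upf1 differed most. Its intronic abundance had a lowest, median and highest value of 8.25, 10.5 and 15.0 in labeled and 2.81, 4.52 and 5.40 in total RNA. All labeled libraries lay above all total libraries, and the log2 difference was 1.14 ± 0.28 (SE, limma adjusted p = 0.0108). The total mean of Upf1 (4.42) lay under the filter of 5, so the gene was tested only through its labeled values, which by itself favored a difference. Without any filter on low values the same difference had a limma adjusted p of 0.0137. Smg5 had 16.1, 25.0 and 38.9 in labeled and 11.4, 14.4 and 15.5 in total RNA. Its ranges did not overlap either, although the lowest labeled and the highest total library were close, and the log2 difference was 0.78 ± 0.27 (SE, limma adjusted p = 0.0476). The Smg5 call was lost in 21 of 26 alternatives, with limma adjusted p from 0.0138 to 0.761 over them.

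The other 5 genes did not pass. Upf3a gave 0.68 ± 0.34, Upf2 0.51 ± 0.34, Upf3b 0.38 ± 0.32, Smg1 0.07 ± 0.35 and Smg6 -0.06 ± 0.32 (log2, SE), with limma adjusted p of 0.146 to 0.895 and overlapping ranges. In all, 2 of 7 genes were called higher and 0 lower, beside 25.4% higher and 0.163% lower among 23949 features. The median feature rose by 0.61, so relative to it Upf1 was higher by 0.53 and Smg5 by 0.17, while Smg1 was at -0.54 and Smg6 at -0.66. When library medians were set equal, Upf1 gave 0.51 (limma adjusted p = 0.0885) and Smg5 0.14 (limma adjusted p = 0.363), both no longer called. Smg1 and Smg6 were then called lower, at -0.57 and -0.69, where 1647 of 23949 features were called higher and 1696 lower. For Smg1, Upf2 and Upf3b the direction turned negative with this scaling.

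The labeled libraries did not vary independently of their intronic content. In 7 of 7 genes the labeled libraries of replicate 1 at 15 and 60 min had the highest intronic abundance, and those of replicate 2 at these times the lowest or next to lowest. These are the libraries in which introns held the most and the least of all abundance, and the part of that in the intronic results was not tested. Without replicate 1, the log2 difference of Upf1 was 0.87 (limma adjusted p = 0.157) and that of Smg5 0.47, both short of the threshold.

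**Figure D2:**
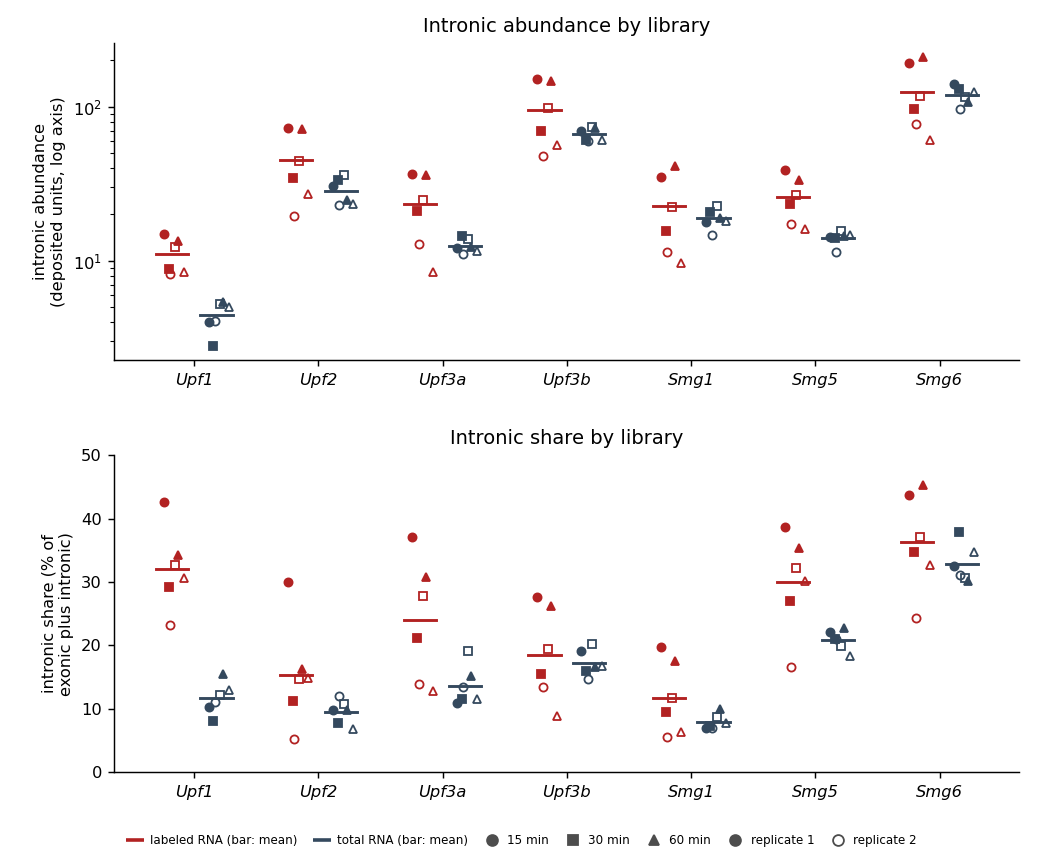
Intronic abundance in deposited units (top, log axis) and intronic share in percent of exonic plus intronic abundance (bottom) for each gene in each of 12 libraries, colors and symbols as for exons. For Upf1 the labeled share (23.1 to 42.6%) lies above the total share (8.06 to 15.6%) in every library, while for Smg6 they overlap (24.3 to 45.4% and 30.2 to 37.9%).

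The intronic share of each gene's abundance sets both measures side by side. For Upf1 it was 32.1% ± 6.42 in labeled and 11.7% ± 2.53 in total RNA (SD, n = 6), with ranges of 23.1 to 42.6% and 8.06 to 15.6% that did not overlap. Among 9693 protein-coding genes, this share exceeded that of 68.9% of genes in labeled RNA and of 40.2% in total RNA. Smg6 had the highest share in total RNA, 32.8% ± 2.98, above 84.2% of genes, and 36.3% ± 7.69 in labeled RNA. The Smg6 share sums 6 transcripts with overlapping introns and depends on that summing. In total RNA Smg6-001 alone held 23.8 in introns and 82.5 in exons, whereas Smg6-004 held 35.1 and 18.5. Smg1, with the most exons, had the lowest, 7.96% ± 1.19 in total and 11.7% ± 5.84 in labeled RNA. Smg5 had 30.0% ± 7.73 in labeled and 20.8% ± 1.56 in total RNA, Upf3b 18.5% ± 7.36 and 17.2% ± 2.04, Upf3a 23.9% ± 9.66 and 13.6% ± 3.15, and Upf2 15.4% ± 8.17 and 9.50% ± 1.93. All of these 6 overlapped between labeled and total RNA.

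Tested as the log2 ratio of intronic to exonic abundance, Upf1 alone of the 7 genes was called, higher in labeled RNA by 1.65 ± 0.32 (SE, limma adjusted p = 0.00638). It rests on the intronic values of Upf1 that passed the filter only through labeled RNA, and without the filter its limma adjusted p was 0.0119. Upf3a gave 0.89 ± 0.37 (SE, limma adjusted p = 0.0906), and Upf2, Smg5, Smg1, Smg6 and Upf3b gave 0.63, 0.63, 0.48, 0.21 and 0.03, with limma adjusted p of 0.151 to 0.942. That is 1 of 7 higher and 0 lower, beside 20.2% higher and 0.171% lower among 15818 features with a median of 0.65. The Upf1 value exceeded that of 96.8% of these features. It kept its call when medians were set equal (1.08, limma adjusted p = 0.0082), with normalized quantiles (1.27, limma adjusted p = 0.00625) and with each single library left out. Without replicate 1 the call was lost (1.40, limma adjusted p = 0.188), where 543 of 15818 features were called higher. It was also lost at each labeling time alone (1.40 to 1.79). There only 3, 1 and 1 of all features were called at 15, 30 and 60 min, so this loss says little of Upf1. With equal medians or normalized quantiles, Upf3b, Smg1 and Smg6 turned negative. Upf3b was called lower with normalized quantiles (-0.69, limma adjusted p = 0.0292), where 508 of 15818 features were called lower. Without labeled replicate 2 at 15 min, 4 of 7 genes were called higher, Upf2, Upf3a and Smg5 beside Upf1. In that setting 8441 of all 15818 features were called higher too.

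**Figure D3:**
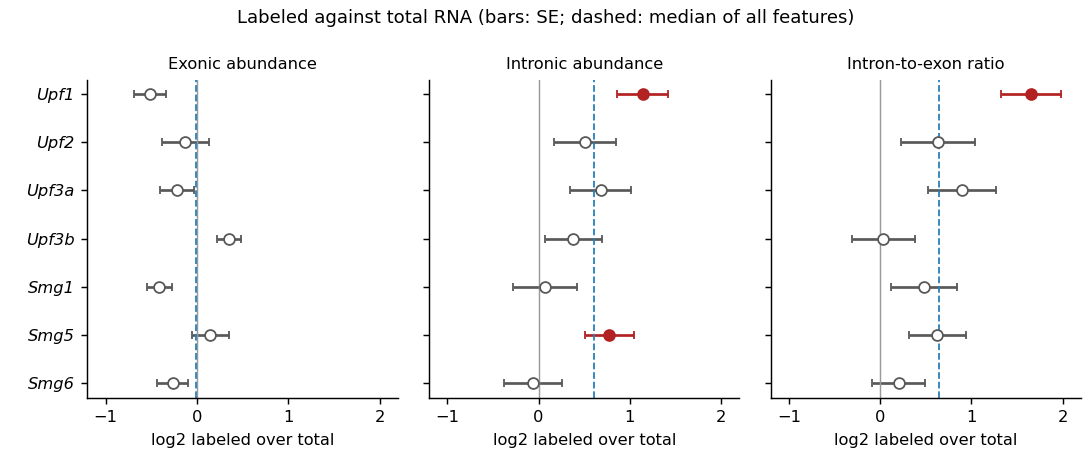
Log2 difference of labeled minus total RNA with its SE for exonic abundance, intronic abundance and the intron-to-exon ratio, filled red where the limma adjusted p was under 0.05, with the median of all features as a dashed line. Upf1 is lowest of the 7 in exons (-0.51) and highest in introns (1.14) and in the ratio (1.65).

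Labeling time made no detectable difference to the 7 mRNAs. Smg5 had the largest estimates in labeled exons and in the labeled minus total difference. Its labeled libraries held 61.5 and 86.6 at 15 min, 63.4 and 56.1 at 30 min, and 61.0 and 37.3 at 60 min, giving a log2 difference of 60 against 15 min of -0.60 ± 0.33 (SE). In total RNA it held 49.9 and 42.9 at 15 min, 53.3 and 62.7 at 30 min, and 49.5 and 65.4 at 60 min. The labeled minus total difference thus moved by -0.89 ± 0.47 (log2, SE) between 15 and 60 min. Upf3b moved by 0.49 ± 0.23 (log2, SE) in labeled RNA between the same times. No gene of the 7 passed in labeled exons, total exons, their difference or labeled introns, with limma adjusted p of 1 throughout. The shares called over all features were 0%, 0% and 0% in the exonic comparisons, with 252, 176 and 228 of 25276 at an unadjusted p under 0.05 but no gene of the 7 among them, and 0.00418% in introns. With 2 libraries per time and fraction, only large differences could have been called.

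Apparent rates were computed from the abundances and are given as a description. The synthesis rate is the labeled exonic abundance per hour of labeling, the processing rate the synthesis rate over total intronic abundance, and the degradation rate the synthesis rate over total exonic minus intronic abundance, each averaged over the 3 labeling times. Since all libraries were scaled to the same total, dividing by the labeling time made every rate fall from 15 to 60 min, and only the order between genes is read here. Synthesis spanned from 54.8 abundance units per hour for Upf1, above only 2.14% of 10620 protein-coding genes, to 897 for Upf3b, above 70.7%. Upf2 had 615, Smg6 514, Smg1 386, Upf3a 164 and Smg5 155, beside a coding median of 392 and quartiles of 151 and 1104. Upf2, Upf3b and Smg6 are sums over transcripts here, and the median over their transcripts gave 245, 328 and 123, so that Upf3b was no longer above Smg1. The low place of Upf1, by its 1 assigned transcript, held at each labeling time, above 2.45, 3.02 and 2.89% of genes at 15, 30 and 60 min.

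Processing and degradation ordered the genes differently. Smg6, the gene with the largest span, had the lowest processing rate, 4.30 per hour, above 10.6% of 9607 coding genes. That rate uses sums over 6 transcripts, in which shared introns may count more than once. In total RNA the sums were 119 in introns and 244 in exons, whereas Smg6-001 alone held 23.8 and 82.5. The low place of Smg6 thus depends on the summing. Upf2 at 21.8 and Smg1 at 21.6 per hour had the highest, above 69.3 and 69.0% of genes. Upf1, Upf3a, Upf3b and Smg5 lay between 11.5 and 13.6 per hour, near the coding median of 13.7. Degradation was lowest for Upf1 (1.86 per hour) and Smg1 (1.90), above 11.8 and 13.3% of 8935 coding genes. Smg5 (4.24), Smg6 (4.02) and Upf3b (3.54) had the highest values, above 81.0, 78.6 and 72.1% of genes. Upf2 (2.69) and Upf3a (2.29) lay between, beside a coding median of 2.69. Replicates gave 1.72 and 2.03 per hour for Upf1, 1.70 and 2.17 for Smg1, 3.96 and 4.70 for Smg5 and 4.23 and 4.00 for Smg6. In this average the low and the high genes did not overlap, whereas Upf2 gave 2.02 and 4.08 and could not be placed. Upf3a gave 1.96 and 2.95, the former within the range of Smg1. The average follows 15 min most, and at 60 min alone Upf1, Smg1 and Smg5 had 0.857, 0.964 and 1.15. With the median over transcripts Smg6 degradation was 3.06. The place of some genes depended on time. At 15, 30 and 60 min, Smg5 stood above 85.1, 67.5 and 50.3% of genes, and Upf2 above 60.9, 21.5 and 40.8%. Smg1 stood above 7.35% of genes at 30 min and 32.4% at 60 min, the latter within the quartiles.

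**Figure D4:**
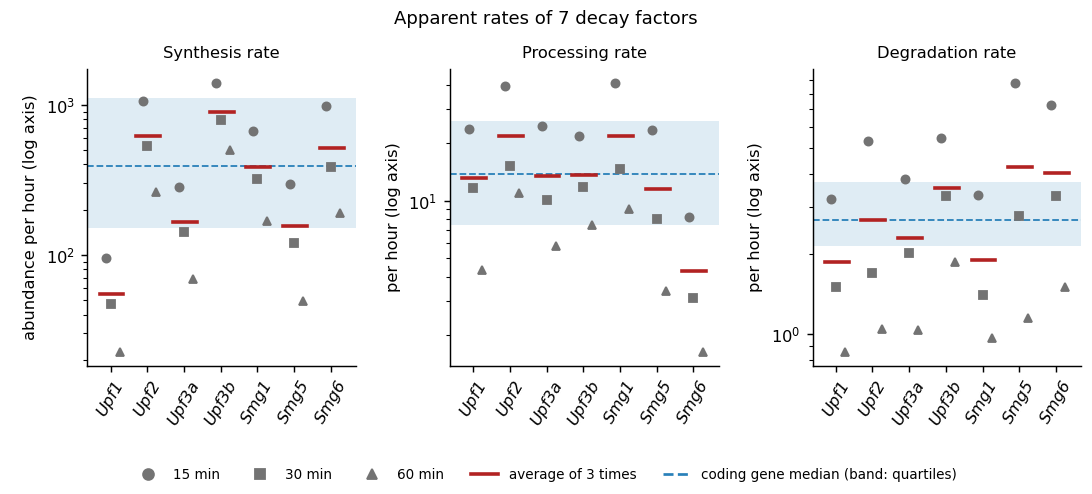
Apparent synthesis rate (abundance units per hour), processing rate and degradation rate (per hour), all on log axes, for each gene at 15, 30 and 60 min, with their average as a red bar and the median and quartiles of protein-coding genes as a dashed line and band. Upf1 lies below the band for synthesis (54.8) and, with Smg1, for degradation (1.86 and 1.90). Smg6, summed over its transcripts, lies below it for processing (4.30).

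Other genes of the pathway were examined in the same exonic comparison, in which 6.33% of all features were called higher and 9.50% lower. Among 7 further NMD factors tested, labeled RNA was higher for 0 and lower for 2, and the list had a median of -0.31 beside -0.01 over all features. The largest change was that of Mov10, an RNA helicase, at 496 to 715 in labeled and 955 to 1205 in total RNA (-0.90 ± 0.12, SE, limma adjusted p = 0.00163). Ruvbl2 was the other (-0.47 ± 0.12, SE). Of 9 genes of the exon junction complex and its partners, 0 were higher and 2 lower (median -0.03). These were Casc3, a core subunit, at 185 to 275 in labeled and 312 to 344 in total RNA (-0.58 ± 0.11, SE, limma adjusted p = 0.00772), and Eif4a3, the RNA-binding core (-0.48 ± 0.12, SE). With the replicate block 1 gene of each list was called lower.

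Of 8 translation termination, cap-binding and decay genes, 4 were lower and 0 higher (median -0.60). Pabpc1, the poly(A)-binding protein, held 20602 to 27708 in labeled and 36178 to 47465 in total RNA (-0.87 ± 0.10, SE, limma adjusted p = 0.000828), and Gspt1 and Etf1, the release factors, and Dcp2, the decapping enzyme, were the others. Of 7 known targets of NMD, 6 had values and 4 reached the mean of 20, of which 4 were higher in labeled RNA and 0 lower (median 0.85), beside 6.33 and 9.50% of all features. Ddit3, a stress-induced transcription factor, held 95.7 to 252 in labeled and 63.4 to 93.0 in total RNA, without overlap (1.11 ± 0.21, SE, limma adjusted p = 0.00587). Gas5, a snoRNA host gene, Atf4 and Gadd45a gave 0.94, 0.76 and 0.76. Over the alternatives with these 4 genes, their differences stayed positive (0.43 to 1.63), but the number called ranged from 0 to 4. At single labeling times it was 0, as it was over all 25276 features. With 1 replicate it was 0 too, where 0 or 5 of all features were called, so these settings say little of the targets. The number was 3 with the replicate block and 2 when library medians were set equal. It was also 2 without either total library at 15 min, either labeled library at 30 min, either total library at 30 min or total replicate 1 at 60 min. With 1 replicate, 0 genes of the other 3 lists were called in exons, beside the same 0 or 5 of all features. The 2 targets with low values pointed the same way, Gadd45b with 19.3 ± 7.61 against 9.70 ± 4.69 and Atf3 with 10.1 ± 5.05 against 4.82 ± 1.84 (SD, n = 6). Both were tested only without the filter on low values, where 3 of 6 targets were called higher and 0 lower.

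Introns of these lists mostly gave positive values too. In labeled RNA, 3 of 7 further NMD factors, 5 of 9 exon junction genes, 1 of 8 termination and decay genes and 4 of 4 NMD targets were called higher and 0 lower, beside 25.4% of all features. With equal medians it was 2, 0, 0 and 2, and 1 further NMD factor was called lower, where 1647 of 23949 features were called higher and 1696 lower. For the intron-to-exon ratio it was 4 of 7, 4 of 9, 3 of 8 and 0 of 4, beside 20.2% of all features. With equal medians it was 2, 1, 2 and 0, and 1 NMD target was called lower, where 1245 of 15818 features were called higher and 357 lower. In the ratio, Ruvbl2 gave 1.79, Pabpc1 1.64 and Eif4a3 1.54, close to the 1.65 of Upf1, so such a value was not particular to Upf1 among genes of the pathway. The calls of these 4 lists at 60 against 15 min were 0 in exons and 0 in introns.

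**Figure D5:**
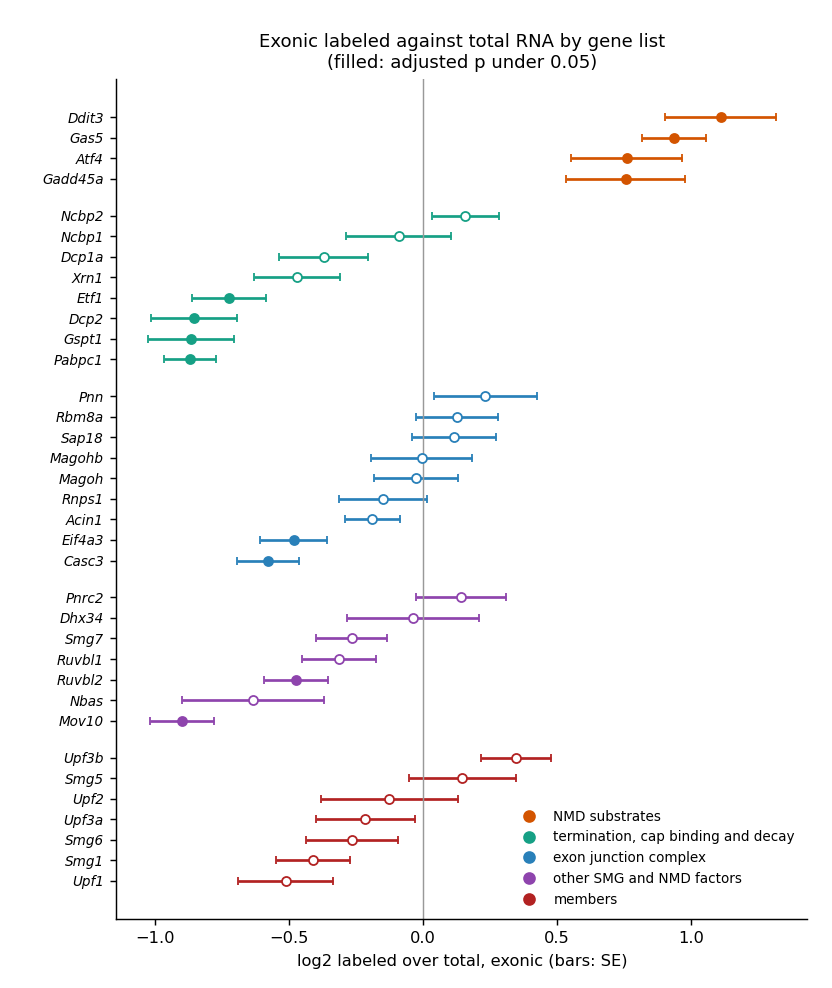
Exonic log2 difference of labeled minus total RNA with its SE for the 7 genes and for 4 lists of the same pathway, filled where the limma adjusted p was under 0.05. The 4 tested NMD targets lie at 0.76 to 1.11, and 4 of 8 termination, cap-binding and decay genes lie at -0.72 to -0.87.

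Since 4sU replaces uridine, the uridine content of the mRNAs was set beside their labeling. The coding transcript of Upf1 had 20.1% uridine (4616 bases), more than 12.7% of 20631 coding transcripts tested, and that of Smg1 had 27.1% (15547 bases), more than 78.3%, and both had negative exonic differences. Upf3a had 14.4%, more than only 0.37% of transcripts, with a log2 difference of -0.21, but Upf3b-003, at 14.7%, had 0.44 and Smg5, at 20.5%, had 0.15. Across all 20631 transcripts, which share the same 12 libraries, Spearman's rho between uridine content and the exonic difference was -0.08. The part of uridine content in the differences was not tested further.

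Over the 12 libraries the mean centred profile of the 7 genes ran from -0.39 in labeled replicate 2 at 60 min to 0.22 in total replicate 1 at 30 min (log2). Upf2 followed it most closely (r = 0.92), and Upf3b ran against it (r = -0.81). The genes outside the 7 with the most similar profile, among 8744 with a mean of at least 100, were Gm10171 (r = 0.98), Atm (r = 0.98) and Utp18 (r = 0.98). All these values come from the same 12 libraries and describe likeness only.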

How the data were processed

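Labeled and total RNA of mESCs was sequenced on an Illumina instrument after Ovation RNA-Seq library preparation, giving 12 libraries. The authors removed rRNA reads with STAR v2.5.0, aligned the rest to exonic and intronic sequences and quantified them with RSEM. The deposited signal is a length-normalized abundance, scaled to the same total in each library (about 20 times TPM), with values of 1 or less missing. The depth of each library and the counting error are therefore unknown. The submitters' processing notes name mm10. Transcripts were assigned to genes with GENCODE M1 (mm9), which held 83847 of 111672 Ensembl transcripts with exonic values (75.1%). Later transcripts were left unassigned, and no mm9 coordinate was joined to the files.

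Transcripts were summed per gene, so sequence shared by transcripts may count more than once. Labeled and total RNA were compared with limma 3.58.1 (R 4.3.3) on log2(value + 1), missing values as 0, labeling time as covariate and a trend of variance with mean. P-values were adjusted by the Benjamini-Hochberg method (threshold 0.05) over all features with a mean of at least 20 (exons) or 5 (introns). Differences on this scale are understated at low abundance. Of the 25276 exonic features, 13977 were M1 genes and the others unassigned transcripts. Per the labels, 1 culture was divided to give biological replicates 1 and 2, and the number was run as a block. Whether labeled and total RNA of 1 number came from the same plate is not given in the sources used here. Deviations from the group mean correlated between labeled and total libraries of 1 number at -0.04, 0.07 and -0.24 at 15, 30 and 60 min. The fits were tested on simulated data, with log2 changes of 1 and of 2 (the larger size was added after the smaller was rarely recovered). Rates followed the definitions in the text, without INSPEcT. Named genes were the 7 members, their leading or called transcripts, the gene of each list with the largest called change and the 3 most similar genes. Others were named after their values were seen. The members and lists were chosen with earlier results of these data known. Python 3.11.15 with pandas 2.3.3, numpy 2.4.6, scipy 1.17.1 and matplotlib 3.10.9 was used.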

Additional observations from a re-analysis of the deposited data

Results flagged for a closer look

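The intronic abundance of Smg5 in total RNA was 11.4 in replicate 2 at 15 min, below the other 5 total libraries, of which the nearest was at 14.1. The gap was 0.658 of the range, above Dixon's 95% critical value for 6 values. This was 1 of 42 groups examined, where chance gives about 2.1. Without this library the intronic log2 difference of Smg5 was 0.71 (limma adjusted p = 0.116).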

How the results depend on the processing

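The number of the 7 genes (or 13 transcripts) called changed with the processing as follows, and the cause was not tested. In exons (main count 0), it was 2 with equal library medians, 2 with normalized quantiles, 1 without the mean-variance trend and 0 to 3 with libraries left out. For transcripts (1), it was 3 with equal medians, 2 with normalized quantiles, 0 without a filter, 0 with the replicate block, 0 at 15, 30 or 60 min alone and 0 to 2 with libraries left out. In introns (2), it was 1 with a pseudocount of 20, 1 without a filter, 0 with a filter 5 times higher, 1 with complete values only, 1 without the trend, 0 at each time alone and 0 to 2 with libraries left out. For the ratio (1), it was 0 with the higher filter, 2 with normalized quantiles, 0 at each time alone and 0 to 4 with libraries left out. In introns and the ratio the higher filter left only Upf2, Upf3b and Smg6 tested, so the calls of Upf1 and Smg5 could not be made there. Over all features, the fits at 15, 30 and 60 min alone called 0, 0 and 0 transcripts, 6, 0 and 1 in introns and 3, 1 and 1 ratios. The counts of 0 at single times therefore say little of the 7 genes. The time comparisons gave 0 in all 21 alternatives each.

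Directions turned, without a call unless stated, in these log2 values. With equal medians, intronic Smg1 gave -0.57 (called), Upf3b -0.25 and Upf2 -0.12, and the ratio of Smg1 gave -0.091, Upf3b -0.54 and Smg6 -0.36. With normalized quantiles, exonic Smg5 gave -0.013, intronic Smg1 -0.56 (called), Upf3b -0.26 and Upf2 -0.13, and the ratio of Smg1 gave -0.16, Upf3b -0.69 (called), Smg6 -0.46 and Upf2 -0.065. At single times, exonic Smg5 gave -0.25 (60 min) and Upf2 0.18 (15 min), intronic Smg1 -0.20 (30 min) and Smg6 0.058 (15 min), and the ratio of Upf3b -0.067 (30 min) and -0.11 (60 min). A pseudocount of 20 gave -0.0059 for the Upf3b ratio, and the highest transcript 0.0082 for Smg6 introns. With libraries left out, exonic Upf2 ran from -0.30 to 0.037, intronic Smg1 from -0.41 to 0.54, Upf3b from -0.0059 to 0.77 and Smg6 from -0.44 to 0.33, and the ratio of Smg1 from -0.039 to 1.00, Upf3b from -0.42 to 0.48 and Smg6 from -0.063 to 0.47.

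With the replicate block, 0 genes were called in exons, 2 in introns (Upf1, Smg5) and 1 in the ratio (Upf1), and among the 7 genes and their transcripts the block changed no call but that of the Upf1 transcript. The block with crossed numbers at 60 min, added after seeing the data as was the highest transcript, called 0, 1 transcript, 2 and 1. Over all features, exonic calls were 4000, 2400 with the block, 4695 with the crossed block, 5314 with equal medians and 0 to 5476 with libraries left out (0 without replicate 1). Intronic calls were 6126, and 2732 to 11112 with libraries left out, and with equal medians the higher share of them fell to 49.3% from 99.4%. Ratio calls were 3215, and 589 to 8492 with libraries left out, with 77.7% higher in place of 99.2% at equal medians. Time comparisons could not be fitted with 1 replicate. With equal medians or normalized quantiles the intronic count was still 2, but of Smg1 and Smg6, lower, beside 1696 and 1683 of 23949 features. Rates moved at single times, whose scale follows the labeling time, and with the median over transcripts.

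The depth of each library is unknown, so low values carry an error that is not given. On simulated data the tests recovered a minority of log2 changes of 1 in exons and none in introns or the ratio, and most changes of 2. A missing call in introns or the ratio therefore does not show that a gene differed by less than 1.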
